A study of Mus musculus with 4 samples.

Results

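Smg6 encodes an endonuclease of nonsense-mediated mRNA decay, the pathway that removes messenger RNAs with premature stop codons. The gene was followed through 2 CLIP-seq peak lists from mouse embryonic fibroblasts (MEFs), where every listed peak whose RefSeq transcript belongs to Smg6 was taken. It had 65 peaks of 107319 in all, 23 of the 50983 SRSF1 peaks and 42 of the 56336 SRSF2 peaks, and all were named for 1 transcript, NM_001002764, on the plus strand of chromosome 11. The gene was chosen by its number of SRSF2 peaks, among the 10 highest of the named genes, so the counts and the share that follows from them are given as descriptions, with no test.

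CLIP-seq crosslinks a protein to RNA in living cells with ultraviolet light, precipitates the protein and sequences the RNA fragments that come with it. SRSF1 was measured in the SRSF1 tet-repressible MEF line and SRSF2 in the SRSF2 tet-repressible MEF line. Both lines were grown without tetracycline, and an antibody against the HA tag was used in both. Of the 4 samples of the series, the SRSF1 libraries from cells given control siRNA or siRNA against SRSF2 were not analysed here. With 1 library of each protein, each from its own line, the protein and the line cannot be told apart, and no value below has a replicate error.

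In nonsense-mediated decay the helicase UPF1 is phosphorylated by the kinase SMG1 on an mRNA whose translation ended too early. SMG6 then cuts the mRNA near that stop codon with its PIN nuclease domain. Both SRSF1 and SRSF2 belong to the SR family of splicing factors, which bind exons and promote their inclusion, and many genes of the family hold exons whose inclusion sends the transcript to this decay pathway.

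The depth in reads is unknown, since the lists give peaks only. Named genes numbered 2155 and held 15.9% of all peaks. Of the fibroblast markers, 4 of 14 had a named peak, where 9.75% of 21900 protein-coding genes had one. These were Col1a1, Col6a1, Postn and Thbs1, with 203 peaks in all, 107 of them in Col1a1. Of 5 epithelial markers 1 had a peak, Krt19 with 1, and 4 lists for macrophages, endothelium, neurons and skeletal muscle had 0. The lists are short, and no cell type is read from them. Most peaks lie in units without a gene name, so a gene at 0 is not shown to be unbound.

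The peaks of each protein spanned more than 230 kb of Smg6, with most of them within 10 kb of the first peak. SRSF2 had more peaks than SRSF1. Among the 2155 named genes, Smg6 ranked 33rd by SRSF1 peaks and 8th by SRSF2 peaks. It was one of the 1422 named genes (66%) with peaks of both proteins. SRSF1 made up 35.4% of its peaks (exact 95% binomial interval 23.9 to 48.2, counting error only), against 47.5% of all peaks and 47.6% of those on chromosome 11. The interval lay below the overall share for 14 (2.65%) and above it for 12 (2.27%) of the 528 named genes that had 10 or more peaks. Smg6 is in neither group, and since its SRSF2 count chose it, nothing is read from that. Its share was higher than that of 91 of these genes and lower than that of 436. Next to it by SRSF2 peaks stood Usp32, a ubiquitin protease, with 47, and Lamc1, a laminin chain, with 49. Below it stood Med13, a Mediator subunit, with 40, and Fam120a with 39.

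Positions are on mm9, counted from 1. The SRSF1 peaks ran from chr11:74742211 to 74973351 and the SRSF2 peaks from chr11:74739430 to 74969773, spans of 231 kb and 230 kb. The widest distance between neighbouring midpoints was 105995 nt for SRSF1 and 84328.5 nt for SRSF2. Peaks were chained into blocks wherever the gap between them was at most 500 nt, a distance chosen after the positions were seen. This gave 14 blocks, of which 5 held both proteins, 1 held SRSF1 alone and 8 held SRSF2 alone. The 5 mixed blocks held 53 of the 65 peaks. SRSF2 was thus present in 13 blocks and SRSF1 in 6, and 7 of the 14 blocks were a single peak.

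**Figure D1:**
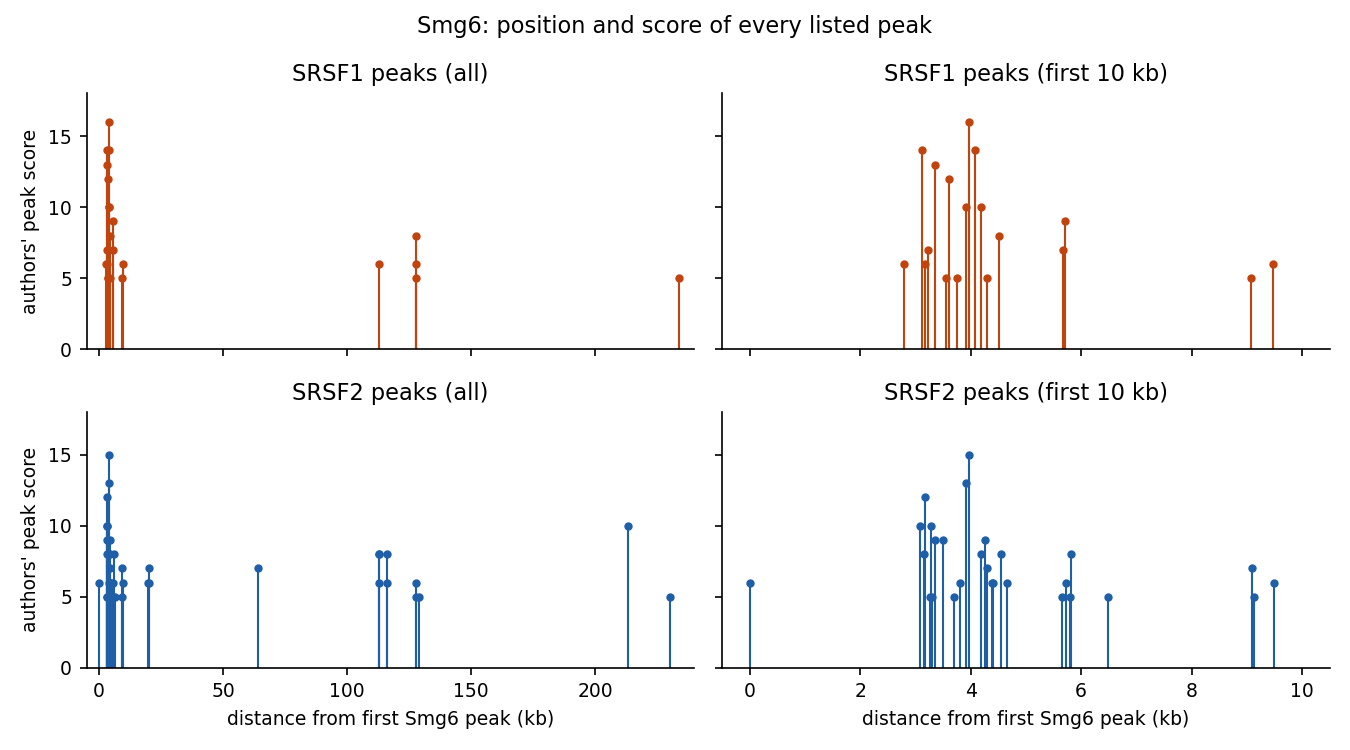
Position and score of each Smg6 peak, SRSF1 above and SRSF2 below, against the distance in kb from the first Smg6 peak; the right panels enlarge the first 10 kb. Each line is 1 peak and its height is the authors' score. The highest peaks of both proteins, scores 16 and 15, stand close together about 4 kb from the first peak, and peaks are sparse beyond 10 kb.

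Of the 65 peaks, 33 lay in 1 short stretch near the 5′ end of the bound region. The block chr11:74742211-74744092, 1.88 kb long and 2.78 kb after the first peak, held 14 SRSF1 and 19 SRSF2 peaks, 50.8% of all Smg6 peaks. It held 60.9% of the gene's SRSF1 peaks (38.5 to 80.3) and 45.2% of its SRSF2 peaks (29.8 to 61.3), and these intervals overlap. The SRSF1 share was 42.4% inside the block (25.5 to 60.8) and 28.1% in the rest of the gene (13.7 to 46.7), again with overlapping intervals. SRSF1 peaks covered 474 nt of the block and SRSF2 peaks 456 nt, of which 202 nt were covered by both. In all, 728 of its 1882 nt were under a peak of either protein.

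The SRSF1 peaks of this block included both wide, high-scoring peaks and short, low-scoring ones. The score is the authors' whole number for a peak, of unstated meaning, and serves to rank peaks within a list. From 5′ to 3′ the block opened with a peak of score 6 at 74742211 to 74742230, followed by the widest Smg6 peak, 96 nt from 74742498 to 74742593 with score 14. Peaks of scores 6 and 7 followed, then 1 of score 13 at 74742766 to 74742801. After a peak of score 5, the next high peak was that at 74743019 to 74743054 with score 12. The highest SRSF1 peak of the gene, score 16, lay at 74743383 to 74743422, right after a peak of score 10 that starts at 74743332. A peak of score 14 at 74743484 to 74743532 was next, and the block closed with scores 10, 5 and 8. All 5 of the highest SRSF1 scores in Smg6, from 12 to 16, were thus in this block. The score of 16 is at or above 93.1% of the SRSF1 list.

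The 19 SRSF2 peaks of the block also ranged from low to high within their own list. Their scores ran from 5 to 15, with a median of 8. The highest SRSF2 peak, score 15, was at 74743392 to 74743425. It was followed by scores of 13 at 74743334 to 74743367 and 12 at 74742599 to 74742625. Peaks of score 10 lay at 74742503 to 74742531 and at 74742698 to 74742720. The only other SRSF2 peak of score 10 in the gene was far downstream, at 74952832 to 74952863, 213 kb from the first peak. The score of 15 is at or above 89.1% of the SRSF2 list.

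**Figure D2:**
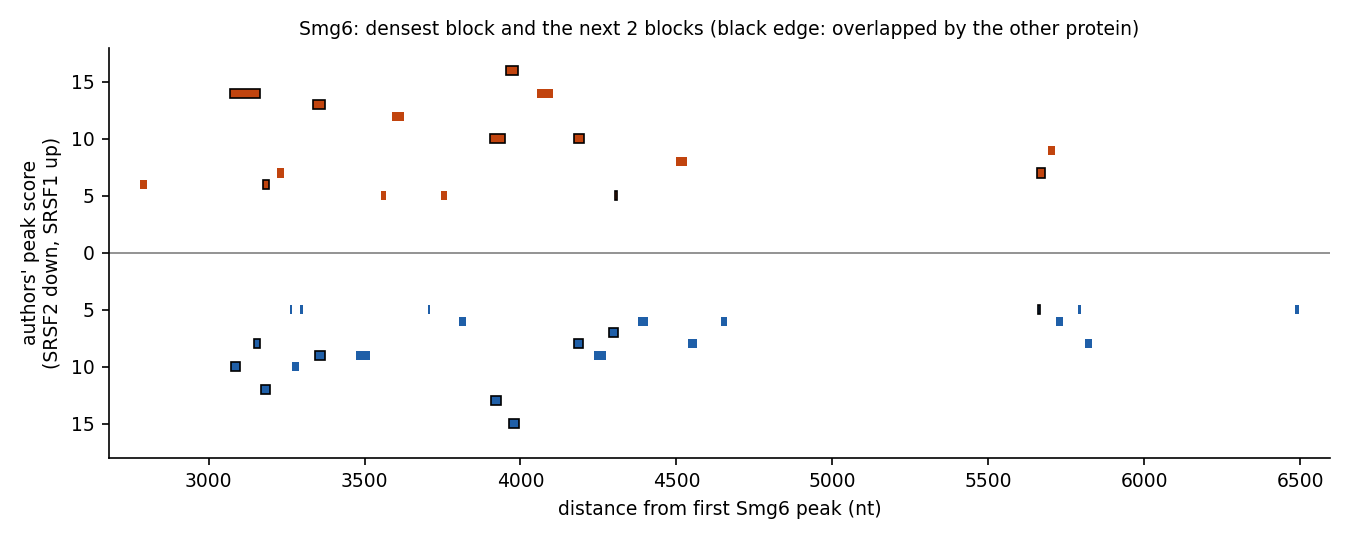
Peaks of the densest block and of the 2 blocks after it, against the distance in nt from the first Smg6 peak, as bars whose length is the peak's width in nt and whose height is the authors' score, SRSF1 upward and SRSF2 downward. A black edge marks a peak overlapped by the other protein; the pair with scores 16 and 15 begins at 3953 and 3962 nt.

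The remaining blocks were small, and SRSF2 was the more frequent protein in most of them. Close to the dense block, chr11:74745085-74745262 had 2 SRSF1 and 4 SRSF2 peaks, a single SRSF2 peak lay at 74745914 to 74745925, and chr11:74748505-74748932 had 2 and 3 peaks. A single SRSF2 peak at 74739430 to 74739445 was the first of the gene. Within 10 kb of that first peak lay 18 SRSF1 peaks (78.3%) and 28 SRSF2 peaks (66.7%). Farther downstream were 5 SRSF1 and 14 SRSF2 peaks.

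In this downstream part, 2 of the 5 SRSF1 peaks and 2 of the 14 SRSF2 peaks were overlapped by the other protein, and 4 of the 5 SRSF1 peaks had an SRSF2 midpoint within 50 nt. The block chr11:74759081-74759622 had 3 SRSF2 peaks with scores of 6 to 7, and 74803600 to 74803618 had 1 with score 7, and neither had an SRSF1 peak. At chr11:74852127-74852210 there were 1 SRSF1 and 3 SRSF2 peaks, and at chr11:74855373-74855497 there were 2 SRSF2 peaks. The block chr11:74867275-74867374 was the only one with more SRSF1 than SRSF2 peaks apart from a lone peak at the end, with 3 and 2. Single SRSF2 peaks followed at 74868514, 74952832 and 74969764, and a single SRSF1 peak of score 5 at 74973340 to 74973351 closed the gene. Between 74868524 and 74952832 no peak of either protein was listed over 84.3 kb, the widest gap in the gene. With 5 equal parts of 46.8 kb from the first to the last peak, the counts of SRSF1 and SRSF2 were 18 and 31, 0 and 1, 4 and 8, 0 and 0, and 1 and 2.

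**Figure D3:**
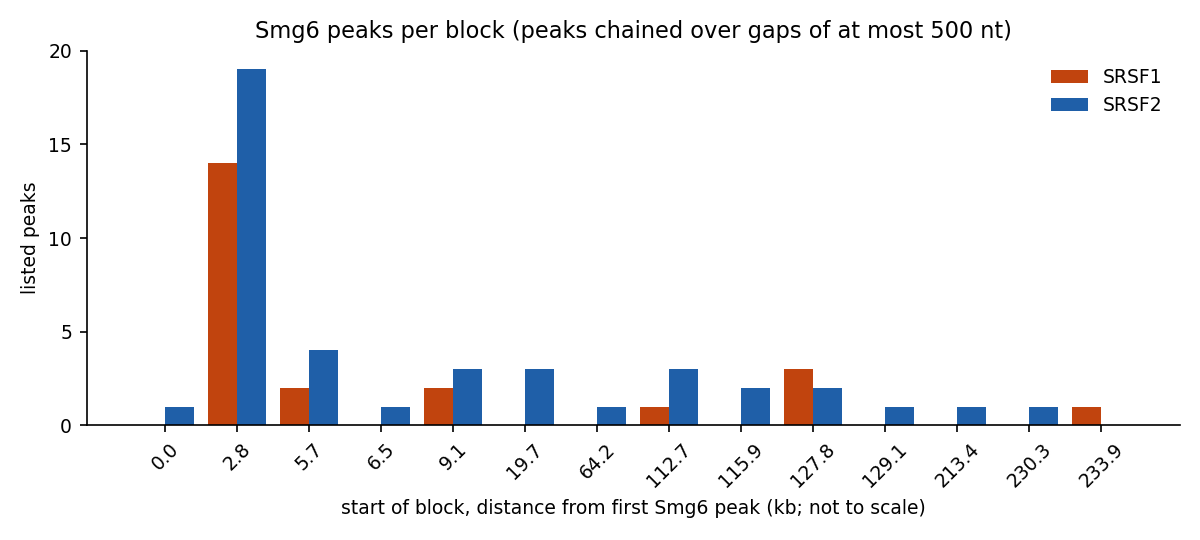
Number of listed SRSF1 (left bars) and SRSF2 peaks (right bars) in each of the 14 blocks of Smg6, in order along the gene; the axis gives the start of each block in kb from the first peak and is not to scale. The second block holds 14 and 19 peaks, and 8 blocks have SRSF2 peaks alone.

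Within each list the peaks came in short runs. Neighbouring SRSF1 midpoints were a median of 135.5 nt apart and SRSF2 midpoints 100.5 nt, and 7 of 22 SRSF1 gaps and 20 of 41 SRSF2 gaps were at most 100 nt. Gaps over 1000 nt numbered 5 for SRSF1 and 11 for SRSF2. The widths were alike, with medians of 20 nt for SRSF1 (6 to 96) and 21 nt for SRSF2 (6 to 44), against 19 nt in both whole lists. The median score was 7 for SRSF1 and 6 for SRSF2, against 8 in both whole lists. A score at or above the list's median was found for 43.5% of the Smg6 SRSF1 peaks, against 51.6% of the whole list. For SRSF2 it was 38.1%, against 60.5%. The interval is 23.2 to 65.5 for SRSF1, which includes the value of its list, and 23.6 to 54.4 for SRSF2, which lies below that of its list. Smg6 was chosen for its many SRSF2 peaks, and peaks of a gene are not independent, so nothing is read from that.

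Nearly equal numbers of SRSF1 and SRSF2 peaks, 12 and 13, overlapped each other, which is a larger share of the smaller SRSF1 set. Peaks counted as overlapping when they had 1 nt or more in common on one strand. Of the SRSF1 peaks, 12 of 23 were overlapped (52.2%, 30.6 to 73.2), against 38.7% of the whole SRSF1 list. Of the SRSF2 peaks, 13 of 42 were overlapped (31.0%, 17.6 to 47.1), against 35.2% of the whole SRSF2 list. Both intervals include the value of their whole list, so neither share of Smg6 stood outside counting error. At the same scores as the Smg6 peaks, 36.4% of the SRSF1 list and 26.4% of the SRSF2 list were overlapped.

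There were 13 overlapping pairs, and they lay in each of the 5 mixed blocks. The pair with the highest smaller score joined the highest Smg6 peaks of both proteins, scores 16 and 15, with 31 nt in common and midpoints 6 nt apart. The next pairs had scores of 10 and 13 at 74743332 and 74743334, with 34 nt in common, and of 14 and 10 at 74742498 and 74742503. A pair with scores of 13 and 9 ended at the same base, 74742801. The wide SRSF1 peak with score 14 met a second SRSF2 peak, score 8, and both ended at 74742593. A pair with scores of 10 and 8 lay at 74743602. Outside the dense block the pairs had low scores, with the smaller score at 5 or 6. Pairs at 74743602, 74748505 and 74867347 began at the same base in both lists.

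Most SRSF1 peaks, overlapped or not, lay close to an SRSF2 peak, while part of the SRSF2 peaks lay far from any SRSF1 peak. An SRSF2 midpoint lay within 50 nt of 18 of the 23 SRSF1 peaks and within 100 nt of 21. An SRSF1 midpoint lay within 50 nt of 21 of the 42 SRSF2 peaks and within 100 nt of 29. The median distance to the other protein was 21.5 nt from SRSF1 peaks and 50.25 nt from SRSF2 peaks, against 57.5 nt and 78.5 nt in the whole lists. Smg6 was chosen for its many SRSF2 peaks, and crowded peaks shorten such distances, so nothing is read from the difference. The unequal counts, 23 and 42, also bear on the contrast between the 2 proteins. For 1 SRSF1 peak and 10 SRSF2 peaks the nearest midpoint of the other protein was over 1000 nt away, up to 3.58 kb for SRSF1 and 48.6 kb for SRSF2. The high SRSF1 peak at 74743484, score 14, had no overlap, and its nearest SRSF2 midpoint was 99.5 nt away. That at 74743019, score 12, had none either, at 99 nt.

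Overlapped and lone peaks had close median scores for SRSF1, while for SRSF2 the overlapped peaks had the higher median, as in the whole list. Overlapped SRSF1 peaks had a median score of 6.5 (5 to 16, n = 12), against 7 for lone ones (5 to 14, n = 11). In the whole SRSF1 list the medians were 9 and 7. Overlapped SRSF2 peaks had a median of 8 (5 to 15, n = 13), against 6 for lone ones (5 to 10, n = 29), and 10 and 8 in the whole SRSF2 list. The ranges of overlapped and lone peaks overlapped in both proteins, and no test was made because peaks of 1 library are not replicates.

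**Figure D4:**
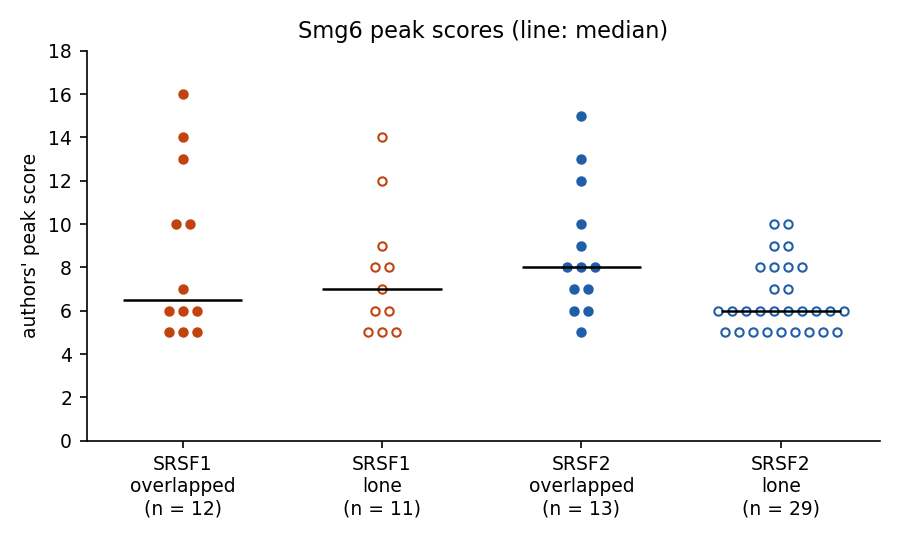
Authors' score of each Smg6 peak, for SRSF1 and SRSF2, split into peaks overlapped by the other protein (filled) and lone peaks (open), with the median as a line. The 12 and 11 SRSF1 peaks have medians of 6.5 and 7, and the 13 and 29 SRSF2 peaks medians of 8 and 6.

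Smg6 was set beside Igf2r, the mannose-6-phosphate receptor, Lamc1 and Usp32, which have somewhat more SRSF2 peaks. Its 23 SRSF1 and 42 SRSF2 peaks compare with 31 and 52 in Igf2r, 33 and 49 in Lamc1 and 34 and 47 in Usp32. The SRSF1 share was 35.4% in Smg6, 37.3% in Igf2r, 40.2% in Lamc1 and 42.0% in Usp32, with intervals that overlap. Med13 and Fam120a, nearer to Smg6 by SRSF2 peaks with 40 and 39, had higher shares of 52.4% and 43.5%. Of all peaks of the gene, 38.5% were overlapped in Smg6 (26.7 to 51.4), 45.8% in Igf2r (34.8 to 57.1), 50% in Lamc1 (38.7 to 61.3) and 59.3% in Usp32 (47.8 to 70.1).

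A larger part of the peaks of Smg6 than of the other 3 genes lay in 1 window. In Smg6, 70.8% of the peaks lay in the densest 10 kb, against 32.5% in Igf2r, 32.9% in Lamc1 and 25.9% in Usp32, although its span of 234 kb was the longest (65.6, 113 and 155 kb). Over the 528 genes with at least 10 peaks the median was 60.2%, but short genes reach high values by their length alone. Among the 56 genes whose peaks spanned at least 100 kb, a bound chosen after seeing the data, the median was 36.6% and only 2 genes were above Smg6. In the densest 2 kb it had 50.8% of its peaks, with a median of 26.3% and 4 genes above it among those 56. Peaks of a gene are not independent, and genes are not replicates, so these ranks are descriptions.

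**Figure D5:**
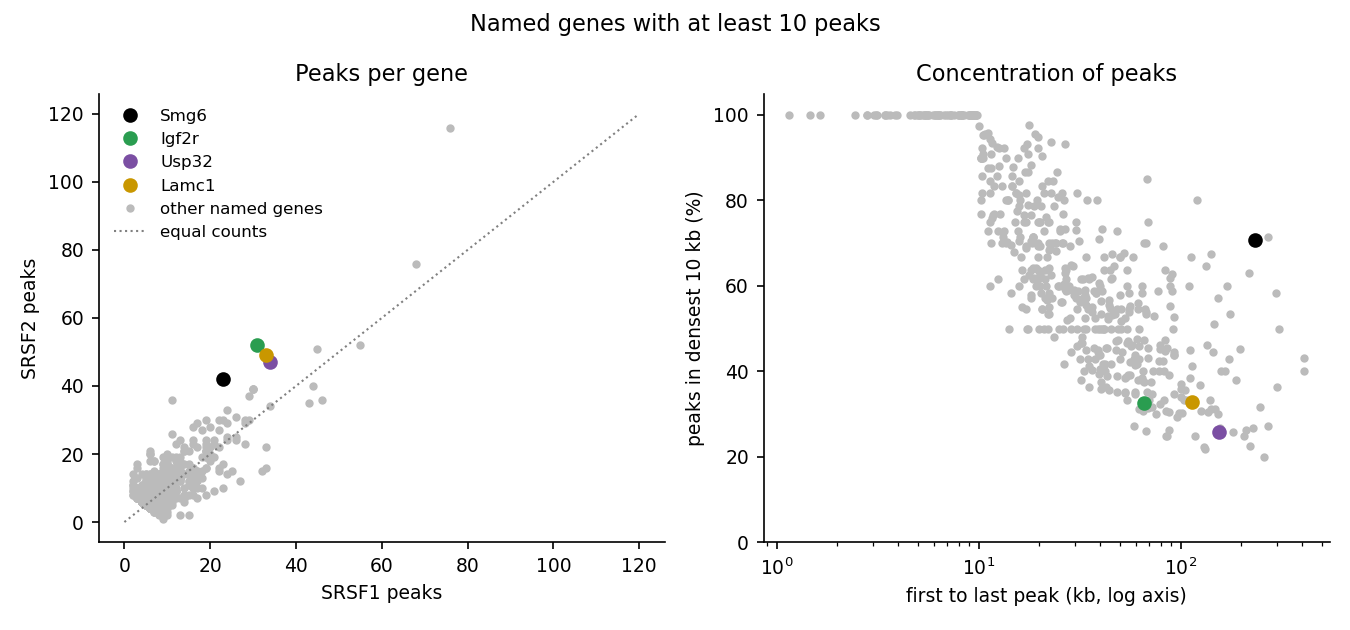
Named genes with at least 10 peaks: number of SRSF1 against SRSF2 peaks per gene, with a dotted line at equal counts (left), and the percent of a gene's peaks in its densest 10 kb against the distance in kb from its first to its last peak, on a log axis (right). Smg6 lies above the line of equal counts at 23 and 42 peaks and, at 234 kb, high in the right panel at 70.8%.

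The genes most like Smg6 were found over the 214 other named genes with at least 20 peaks, by distance between standardised values of 5 measures from the 2 lists. These are the number of peaks, the SRSF1 share, the percent overlapped, the span and the median gap. The closest was Lamc1 at a distance of 1.28, then Glg1, a Golgi glycoprotein, at 1.32, Adam10, a membrane metalloprotease, at 1.48, Igf2r at 1.52 and Tbl1x, a subunit of a corepressor complex, at 1.60. The median distance was 3.63. Glg1 had 23 SRSF1 and 30 SRSF2 peaks, Adam10 16 and 28, and Tbl1x 19 and 24. Of these 5, Tbl1x came nearest to Smg6 in the share of peaks in the densest 10 kb, a measure not used for the likeness, with 67.4%.

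Smg6 carried 65 of the 67 peaks of its list of decay factors. Of 14 factors of nonsense-mediated decay, 3 had a named peak, where 9.75% of 21900 protein-coding genes had one. They had a median of 1 peak per gene, against 4 over all 2155 named genes. Smg8, a subunit of the SMG1 kinase complex, and Ruvbl1, an ATPase that takes part in assembling it, had 1 SRSF1 peak each and no SRSF2 peak. The pooled SRSF1 share of the list was 37.3% (25.8 to 49.99), which is the share of Smg6 with 2 peaks added. Of 10 genes of the exon junction complex, which marks spliced junctions for the pathway, Rnps1 had 1 peak of each protein and Magohb 1 SRSF2 peak. Etf1, the release factor that recognises stop codons, was the only 1 of 5 termination genes with a peak, with 17 SRSF1 and 12 SRSF2 peaks.

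Of the genes of the later steps of decay, most had no named peak, as is true of protein-coding genes at large, of which 9.75% had one. Of 10 decapping genes 2 had one, with both proteins, where 6.47% of all protein-coding genes had both. Edc4, a scaffold of the decapping complex, had 12 SRSF1 and 9 SRSF2 peaks, and Edc3 had 4 and 2. Of 23 genes of deadenylation and the exosome, 5 had a peak, and 3 of these had both proteins. Dis3, an exosome nuclease, had 6 of each, Skiv2l, a helicase that feeds the exosome, 6 and 4, and the exosome subunits Exosc7, Exosc2 and Exosc4 had 4 and 3, 5 and 0, and 1 and 0. Pooled SRSF1 shares were 58.6% for termination (38.9 to 76.5), 59.3% for decapping (38.8 to 77.6) and 62.9% for deadenylation and the exosome (44.9 to 78.5). All of these intervals include 47.5%. Because SMG6 is also known as a telomerase-associated protein, 10 telomere genes were looked up, and 0 had a named peak. That list is too short to differ visibly from the 9.75% of protein-coding genes.

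The strand of Smg6 was otherwise empty of listed peaks over its span. No peak of another unit lay between the first and last Smg6 peak, on the same or the opposite strand. The nearest was a minus-strand SRSF1 peak of an unnamed cluster, 375 nt before the first Smg6 peak. Of 12 genes near Smg6 on chromosome 11, 1 had a named peak, where 9.75% of protein-coding genes had one. It was Mettl16, an RNA methyltransferase, with 2 SRSF1 and 4 SRSF2 peaks that ended 109 kb before the first Smg6 peak. Not every numbered peak is in the lists. In Smg6 the SRSF1 numbers run to 28 with 23 listed, and the SRSF2 numbers run to 51 with 42 listed, so 5 and 9 numbers are missing and partners of lone peaks may be among them.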

How the data were processed

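CLIP-seq of HA-tagged SRSF1 and SRSF2 was done in MEFs, and 1 peak list per protein was used. Per the labels' protocols, libraries were sequenced on Illumina instruments; per the submitters' processing notes, the build is mm9. Each deposited peak has a whole-number score given by the authors. Not given in the sources used here are the aligner, peak caller, threshold and meaning of the score. The members and gene lists were chosen with earlier results of these data known. Peaks were assigned by the RefSeq accession in their name, with symbols from RefSeq on GRCm38.p6, from which no coordinates were taken. No mm9 genome or annotation was used, so no peak was placed on an exon and no sequence is shown. Overlaps were computed in Python 3.11.15 and gave the same counts as bedtools 2.31.1; the scripts were tested on simulated data. Shares carry exact (Clopper-Pearson) 95% intervals from scipy 1.17.1, which cover counting error only, since peaks are not independent molecules. With 1 library per protein, no p-value was computed.

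Named genes are Smg6, members of the lists with a peak, Igf2r, Usp32 and Lamc1, the 2 genes on either side of Smg6 by SRSF2 peaks, and the 5 most alike. Within Smg6 they are the 5 highest peaks of each protein and the 5 pairs with the highest smaller score; other peaks were added as description.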

Additional observations from a re-analysis of the deposited data

How the results depend on the processing

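No paired analysis was possible because each protein has 1 library. The upper 50% of each list means scores at or above its median, which keeps 51.6% of SRSF1 and 60.5% of SRSF2 peaks because of ties. The SRSF1 share of Smg6 was 35.4% to 38.5% under each alternative run. Taking every same-strand peak within the span added none, so that setting could not change a value. Counting midpoints within 50 nt as an overlap raised the overlapped share to 78.3% for SRSF1 and 50% for SRSF2, and setting peaks to 50 nt gave 78.3% and 47.6%; both definitions are wider by construction. The densest window held 50.8% at 2 kb, an alternative added after seeing the data, and 61.5% to 80.8% otherwise. The densest block held 49.2% to 61.5% of the peaks with block gaps of 200 to 1000 nt and 73.1% in the upper 50%. Genes with an interval above and below the overall share numbered 4 and 9 in the upper 50%, 3 and 4 with peaks merged, and 7 and 8 with at least 20 peaks, where fewer genes or peaks enter. The share of the decay list was 100% without Smg6, from 2 peaks. Median scores of overlapped and lone peaks were 13 and 9 for SRSF1 and 9.5 and 8.5 for SRSF2 in the upper 50%, which removes low scores by construction. For SRSF1, midpoints within 50 nt or peaks set to 50 nt gave 7 and 6, against 6.5 and 7, so the order turned and the small difference is not stable. For SRSF2, peaks set to 50 nt gave 7.5 for overlapped peaks. The other 31 values stayed within their interval or did not move, some of them under the same-strand setting, which could not move them. The number of peaks limits all shares.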

Other observations

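The gaps between blocks of Smg6 peaks were set beside the lengths of introns in a GRCm38 transcript model of the gene (the principal isoform in GENCODE), which has 19 exons. Only lengths were compared, after the gaps had been seen; no coordinate was carried between builds and no peak was assigned to an exon. The 8 widest gaps between blocks, in order of length, were 84307, 48508, 43977, 16900, 11777, 10148, 3566 and 3162 nt, and the 8 longest introns of the model were 85229, 48397, 35632, 13257, 11725, 10084, 8156 and 3387 nt. Sorting drops the order along the gene, and sorted lists tend to run alike. In order, the first gaps were 2765, 992, 651, 2579 and 10148 nt. Introns 1 to 4 and 6 have 2989, 828, 571, 2543 and 10084 nt. Introns 5 and 7, of 257 and 374 nt, are shorter than the 500 nt that sets blocks apart. The next gap, 43977 nt, stands against introns 8 and 9, of 35632 and 8156 nt. Gaps of 48508, 3162 and 11777 nt follow, against introns 10 to 12, of 48397, 3138 and 11725 nt. The last gaps, 1139, 84307, 16900 and 3566 nt, do not pair 1 to 1 with introns 13 to 18. That of 84307 nt stands against intron 13, of 85229 nt. The gap of 16900 nt stands against introns 14 and 15, of 3387 and 13257 nt. That of 3566 nt stands against introns 16 and 17, of 2861 and 437 nt. No intron is left for the gap of 1139 nt, and no gap for intron 18, of 2913 nt. Apart from these the lengths ran close in order, which was not tested. The longest exon of the model is exon 2, with 1756 nt, and the densest block of peaks was 1882 nt long. The last exon has 1629 nt. The last block, a single SRSF1 peak, began 233.91 kb from the first peak, and the model is 238.626 kb long. The last block is therefore not set against the last exon. Whether the blocks lie on these exons was not tested.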
